A study of Mus musculus with 14 samples.

Results

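Glutathione S-transferases are a family of enzymes that join the tripeptide glutathione to reactive compounds, such as products of lipid peroxidation, so that a cell can export or break them down. The alpha, mu, pi, theta and omega classes are encoded by separate genes. Of the alpha class, Gsta3 lies on chromosome 1 and Gsta2 and Gsta4 on chromosome 9. Several members are known targets of NRF2, a transcription factor released under oxidative stress, and of the aryl hydrocarbon receptor. The spleen, where macrophages break down old red cells, is a tissue with a steady load of iron and oxidants. Here 10 members were followed, namely the alpha class genes Gsta2, Gsta3 and Gsta4, the mu class genes Gstm1, Gstm2 and Gstm5, the pi class gene Gstp1, the theta class genes Gstt1 and Gstt2 and the omega class gene Gsto1. They were chosen by symbol, with every probe whose accession RefSeq pairs with that symbol, and make up 10 of the 24908 genes tested. They have 14 of the 56605 probes of the array. Gsta2 led to this choice by its difference between the genotypes in these same arrays, so values of the members in that contrast are given as a description with no test.

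RNA of splenocytes came from 7 WT mice and 7 Sting gt/gt mice, with 1 array per mouse. All mice were C57BL/6, were immunized at 10 to 14 weeks of age with chicken collagen type II (CII) in Freund's complete adjuvant (CFA), and were sampled 2 weeks after that injection, so the adjuvant and the collagen are shared by both groups. Sting gt/gt mice, also called golden ticket or Tmem173gt, carry a chemically induced change in the cytosolic DNA sensor STING that leaves no detectable protein. They and the WT mice were obtained from different sources, so genotype and origin cannot be told apart. The labels do not say that the 7 mice of a group came from separate cages or litters.

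A level below is the log2 processed signal of a probe minus the 75th percentile of its array, so that 0 is the 75th percentile and a difference of 1 is a factor of 2. Levels of different probes were not compared with each other, since probes differ in how well they bind. The 75th percentile of the raw signal ran from 403 to 550 over the arrays, no probe was saturated, and 30781 to 34400 probes were well above background. Replicates 1 to 3 of each genotype were scanned on the 1st day and replicates 4 to 7 on the 2nd. On the 2nd scan day every slide held 1 genotype, so slide and genotype cannot be told apart there. Sting1, the gene of STING, had a median of 3.12 in WT and 3.16 in Sting gt/gt mice. A single base change need not alter that level, so it checks no label. B cell markers (6 of 6 tested, mean level 2.92 to 3.71 in WT and 2.90 to 3.53 in Sting gt/gt) and T cell markers (6 of 6 tested, 1.77 to 2.33 and 1.96 to 2.25) were present throughout. The library of WT replicate 4 stood apart with a mean of 7.14 for pancreatic acinar markers (5 of 10 tested), against -2.15 to -0.32 in the other WT libraries. Y-linked genes were close to the lowest levels in 3 WT and 2 Sting gt/gt libraries, so the groups mixed both sexes. These were WT replicates 1, 3 and 7 and Sting gt/gt replicates 2 and 3. Of them only WT replicate 7 was read on the 2nd scan day, so sex was uneven between the days.

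Gsta2, an alpha class enzyme known for the reduction of lipid peroxides, was read by 1 probe, the only one of the 14 that was not well above background on every array. Its level in WT mice ran from -3.87 over a median of -3.35 to -2.28. In Sting gt/gt mice it ran from -4.68 over a median of -4.07 to -3.63. Most Sting gt/gt mice lay below most WT mice, but the groups overlapped, because WT replicates 1 (-3.87) and 3 (-3.82) lay below Sting gt/gt replicates 2 (-3.63) and 3 (-3.67). The log2 fold change, Sting gt/gt minus WT, was -0.75 ± 0.23 (SE, n = 7 and 7). All 4 mice that bridged the groups were read on the 1st scan day, and none of them carried Y-linked signal. WT replicate 7, the remaining mouse without Y-linked signal, had -3.13 on the 2nd scan day and lay above all Sting gt/gt mice. The probe was well above background on all 7 WT arrays and on 5 of 7 Sting gt/gt arrays.

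Within the 1st scan day the difference in Gsta2 was -0.57 and within the 2nd it was -0.89. On the 2nd day the WT levels of -3.54, -3.35, -3.22 and -3.13 all lay above the Sting gt/gt levels of -4.07, -3.89, -4.17 and -4.68. Of all genes tested, 15.1% had groups that did not overlap on that day, so a gap of this kind was common there. Gsta2 was the only member of the 10 without overlap on it. The difference in Gsta2 changed between scan days by -0.32 ± 0.48 (limma interaction, SE). That value is a description with no test, since the genotype contrast chose the gene. The highest of the WT values, -2.28 in replicate 2, decided part of the size, and without that library the difference was -0.58. With the background corrected by normexp, which pulls dim probes together, it was -0.24. On the scale of the deposited log2 table the median was 5.50 in WT and 4.79 in Sting gt/gt mice, and the difference was -0.77. With Y-linked signal as a term it was -0.75, and without WT replicate 4 it was -0.79.

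**Figure D1:**
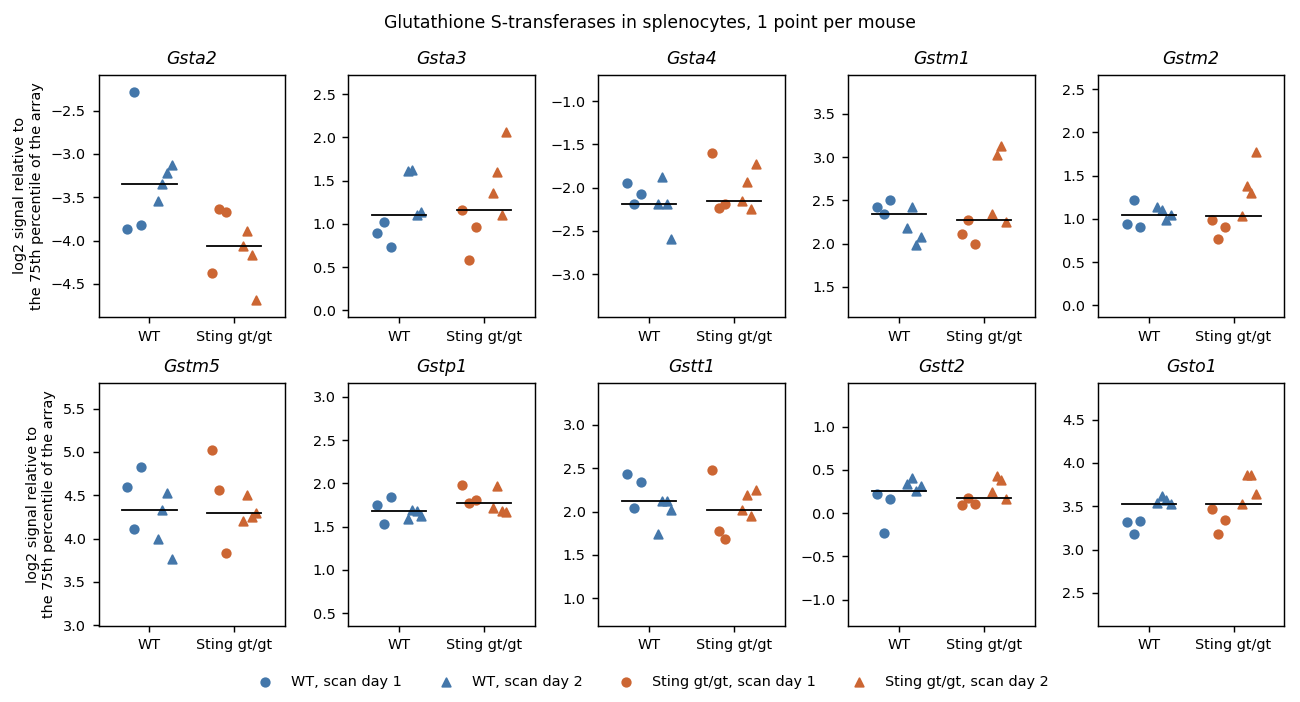
Level of each of the 10 genes at its brightest probe (y axis, log2 signal relative to the 75th percentile of the array, each panel 2.8 log2 units high) in WT (blue) and Sting gt/gt (orange) mice. Circles are mice of the 1st scan day, triangles those of the 2nd and black lines medians; Gsta2 is lower in most Sting gt/gt mice, while 2 Sting gt/gt mice stand above the rest in Gstm1 and all triangles lie above all circles in Gsto1.

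Of the 10 members, 1 was past an unadjusted p of 0.05 in the genotype contrast by limma, which was Gsta2, where 3.54% of all genes tested were. In the direction of Gsta2, lower in Sting gt/gt mice, 1.63% of all genes were past it. Nothing is read from that count, since the contrast chose the gene. The other 9 members had differences from -0.07 to 0.17, of which 8 were positive. The median over the 10 members was 0.11, beside 0.02 over all genes tested, and it was -0.01 within the 1st scan day and 0.16 within the 2nd.

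Among the other alpha class genes, Gsta3, known in mice for the detoxification of aflatoxin, ran from 0.73 over 1.097 to 1.62 in WT and from 0.59 over 1.16 to 2.06 in Sting gt/gt mice. The ranges overlapped, with the lowest and the highest value both in Sting gt/gt mice, and the difference was 0.10 ± 0.21 (SE). Its second, dimmer probe gave 0.13 ± 0.26. Gsta4, the enzyme specialised for the lipid peroxidation product 4-hydroxynonenal, ran from -2.59 over -2.18 to -1.88 in WT and from -2.24 over -2.15 to -1.60 in Sting gt/gt mice, a difference of 0.14 ± 0.14. Both differences were positive, opposite in sign to that of Gsta2, and about 1 SE or less from 0.

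Gstm1, a widely expressed mu class enzyme, ran from 1.98 over 2.34 to 2.50 in WT and from 1.996 over 2.27 to 3.13 in Sting gt/gt mice. The Sting gt/gt range was wider at its upper end because replicates 5 and 6 had 3.02 and 3.13, while the other 5 lay between 1.996 and 2.34. The second probe of the gene had the same mice at the top, with 1.73 and 1.79 against 0.61 to 0.90 in the other Sting gt/gt mice. Neutrophil markers (7 of 8 tested) had a mean level of 6.83 and 6.95 in these 2 mice, the highest on the 2nd scan day, but 6.79 to 6.95 in the 3 WT mice and up to 7.15 in the Sting gt/gt mice of the 1st. Over all mice the difference was 0.17 ± 0.18 at the first probe and 0.25 ± 0.19 at the second. It was -0.29 on the 1st scan day and 0.52 on the 2nd, a change of 0.81 ± 0.28. That change had an exact permutation p of 0.0071 (two-sided, genotypes permuted within scan days, 1400 ways). The permutation supposes no genotype difference on either day, so it does not test the change alone. By limma the change did not pass adjustment over all genes (adjusted p = 0.16). For such a change 18.4% of all genes had an unadjusted limma p under 0.05 and 0.49% an adjusted p under it.

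The neighbours of Gstm1 in the mu cluster of chromosome 3 were looked at in the same mice. Gstm3 reached 3.83 and 3.88 in Sting gt/gt replicates 5 and 6, against 2.86 to 3.07 in the other 5, and Gstm4 reached -1.32 and -1.23, against -2.88 to -2.07. Gstm6 had -1.41 and -1.51, against -2.69 to -2.04. The same 2 mice thus held the highest level of 4 mu class genes. After removal of the genotype and scan-day means, Gstm1 followed Gstm3 at r = 0.97 and Gstm4 at 0.86 over 14 mice, Gstm6 at 0.43, Gstm5 at 0.22 and Gstm2 at -0.21, which is a description. Mu class transcripts are alike in sequence, and whether a probe of one also binds another was not tested.

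Gstm2, a mu class enzyme known from muscle, ran from 0.90 over 1.05 to 1.22 in WT and from 0.77 over 1.04 to 1.77 in Sting gt/gt mice. The medians were nearly equal and the spread was wider in Sting gt/gt mice, with an SD of 0.34 against 0.11. The difference was -0.13 on the 1st scan day and 0.30 on the 2nd, a change of 0.43 ± 0.21 with an exact permutation p of 0.037 and a limma adjusted p of 0.30. Gstm5 ran from 3.77 over 4.33 to 4.83 in WT and from 3.84 over 4.30 to 5.02 in Sting gt/gt mice, with a difference of 0.07 ± 0.19 at the first probe and 0.04 ± 0.18 at the second. No member had an adjusted p under 0.05 for a change of the genotype difference between scan days, and Gstm1 alone had an unadjusted limma p under it.

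Gstp1, the widely expressed pi class enzyme, had the lowest SD over WT mice of the 10 members (0.10). It ran from 1.53 over 1.69 to 1.84 in WT and from 1.67 over 1.78 to 1.98 in Sting gt/gt mice. The difference was 0.13 ± 0.09, with 0.15 and 0.11 on the scan days, so its size was alike on both. Gstt1, a theta class enzyme that acts on small halogenated compounds, ran from 1.74 over 2.12 to 2.44 in WT and from 1.68 over 2.02 to 2.48 in Sting gt/gt mice, a difference of -0.07 ± 0.14. Gstt2, of the same class, ran from -0.23 over 0.26 to 0.40 and from 0.09 over 0.18 to 0.43, a difference of 0.02 ± 0.11. Gsto1, the omega class enzyme that reduces dehydroascorbate and methylated arsenic, ran from 3.18 over 3.53 to 3.61 and from 3.18 over 3.52 to 3.86, a difference of 0.11 ± 0.12. In each of these 4 genes the 2 genotypes overlapped.

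**Figure D2:**
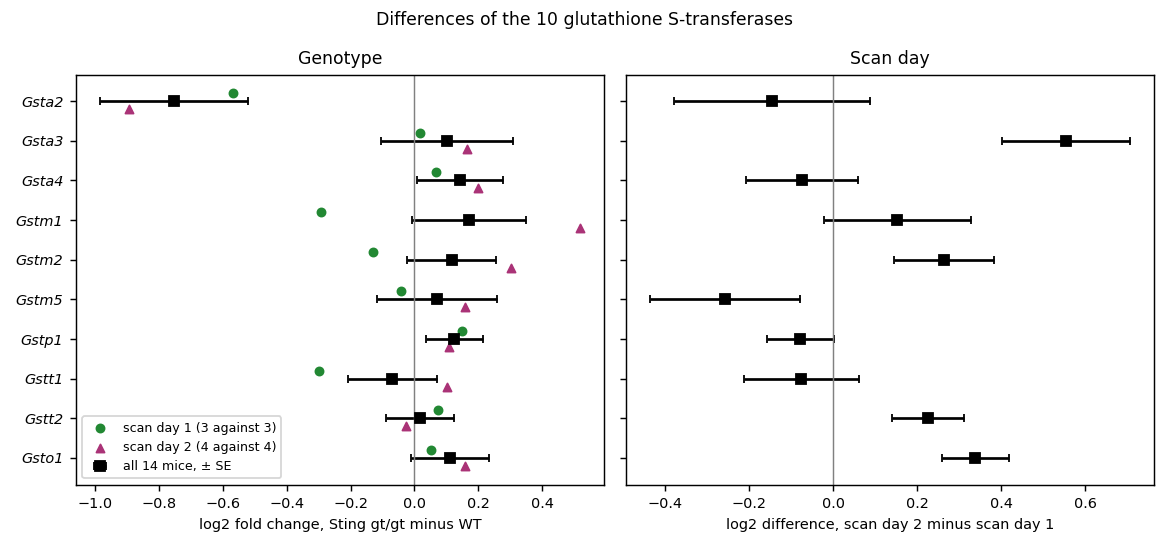
Left, log2 fold change of the 10 genes, Sting gt/gt minus WT (x axis), over all 14 mice with its SE (black) and within each scan day (green, purple); right, log2 difference of scan day 2 minus scan day 1, with genotype in the model and its SE. Gsta2 at -0.75 lies apart on the left, Gstm1 has scan-day values of -0.29 and 0.52, and Gsta3 at 0.55 is farthest from 0 on the right.

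Scan day was not used to choose the members, and limma with genotype in the model put 3 of the 10 under an adjusted p of 0.05. All 3 were higher on the 2nd day, where 38.8% of all genes differed and 18.3% were higher. Gsta3 ran from 0.59 over 0.93 to 1.16 on the 1st day and from 1.097 over 1.48 to 2.06 on the 2nd, a rise of 0.55 ± 0.15 (adjusted p = 0.010; exact permutation within genotypes, two-sided, p = 0.0049, 1225 ways). Its second probe rose by 0.66 ± 0.20. Gsto1 ran from 3.18 over 3.32 to 3.47 and from 3.52 over 3.595 to 3.86, so the days did not overlap, and rose by 0.34 ± 0.08 (adjusted p = 0.0042; exact permutation p = 0.00082, which is the smallest that 1225 ways allow). Its second probe rose by 0.61 ± 0.10. Gstt2 rose by 0.23 ± 0.08 (adjusted p = 0.048; exact permutation p = 0.0024), and its adjusted limma p ran from 0.035 to 0.10 when 1 array was left out. It stayed under 0.05 only without WT replicate 1 (0.043) or Sting gt/gt replicate 7 (0.035). Without WT replicate 2 the rise was 0.16. The adjusted limma p was also above 0.05 without scaling between arrays (0.087), with normexp (0.070) and without a filter on dim probes (0.069). Of all genes, 15.8% had days that did not overlap. Mice without Y-linked signal were mostly read on the 1st day, so scan day and sex cannot be fully told apart. No slide was read on both days, and the days held different mice. Slide and set of mice therefore cannot be told apart from scan day either. With Y-linked signal as a term in limma, added with the data in view, Gsta3 rose by 0.41 (adjusted p = 0.095). Gsto1 then rose by 0.32 (adjusted p = 0.029) and Gstt2 by 0.30 (adjusted p = 0.037). In the deposited log2 table, limma put none of the 10 members and 0 of all genes under an adjusted p of 0.05 between scan days, with 347 genes under an unadjusted p of 0.05, and Gsta3, Gsto1 and Gstt2 differed by 0.13, 0.04 and -0.01. The members' scan-day differences were thus seen in the scanner signals and not in that table. Its 347 genes are fewer than a threshold of 0.05 passes by chance over 24908 genes, and its normalization is not given. The table therefore cannot decide whether the differences in the scanner signals hold.

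The spread of the members over mice was set against lists of cell type markers. In RNA of whole splenocytes, fewer cells of a type and less RNA per cell cannot be told apart. For each of 10 members and 10 marker lists, the genotype and scan-day means were removed and the correlation over the 14 mice was tested by permuting mice within genotype and scan day (exact, two-sided, 20736 ways), with Benjamini-Hochberg adjustment over the 100 relations. Both sides of a relation share their array and its scaling. The single relation past an adjusted p of 0.05 was that of Gstm5 with B cell markers, with r = -0.92 (exact p = 0.00029, adjusted p = 0.029) and Spearman's rho = -0.92 (exact p = 0.00048, adjusted p = 0.048). Without the 2 mice farthest from the median of the markers r was -0.87, and within the scan days it was -0.98 and -0.91. Its second probe gave -0.86. Without scaling between arrays r was -0.51, so its size depended on the scaling.

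With erythroid markers Gstm5 had r = 0.92 (exact p = 0.0021) and rho = 0.86 (exact p = 0.0036), but the adjusted p of 0.069 and of 0.12 missed the threshold. Without the 2 farthest mice r was 0.84, and it was 0.92 at the second probe and 0.91 without scaling. The highest Gstm5 level, 5.02 in Sting gt/gt replicate 1, came with the highest erythroid mean, 5.83, and the next among all mice, 4.83 in WT replicate 3, with 5.73. Red cells had been lysed before RNA was taken, yet the 9 erythroid markers tested (of 10) had a mean level of 5.03 to 5.73 in WT and of 4.69 to 5.83 in Sting gt/gt mice. Their mean differed by -0.31, Sting gt/gt minus WT, and by -0.44 without Sting gt/gt replicate 1. Of the 9 markers, 8 had a negative difference, as had 11001 of all 24908 genes. At an unadjusted p under 0.05 by limma, 2 of the 9 were lower, where 1.63% of all genes were. Tfrc (transferrin receptor) was 1 of these 2, at -0.52 ± 0.23. Neither passed adjustment over all genes. None of the 10 lists passed for Gsta2. Its lowest exact p values were 0.029 for pancreatic acinar markers (r = -0.23, rho = -0.31) and 0.038 for neutrophil markers (r = 0.49, rho = 0.49), both at adjusted p of 0.42 and 0.43, and it had r = -0.49 with the erythroid list (exact p = 0.15).

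With fibroblast and stromal markers Gstm2 had r = 0.92 (exact p = 0.0015) and rho = 0.81 (exact p = 0.0020), at adjusted p of 0.069 and 0.10. Without the 2 farthest mice r was 0.74, and it was 0.93 within each scan day and 0.95 without scaling. The highest Gstm2 level, 1.77 in Sting gt/gt replicate 7, came with the highest stromal mean, 2.28, and the lowest, 0.77 in Sting gt/gt replicate 2, with the lowest, 0.71. All 7 stromal markers, which are collagen genes, proteoglycan genes and PDGF receptors, had a negative genotype difference on the 1st scan day and a positive one on the 2nd. Of the 10 members, 4 had that order of signs (Gstm1, Gstm2, Gstm5 and Gstt1), and of all 24908 genes 8038. Gsta3 had r = 0.76 with the stromal list (adjusted p = 0.28 by the exact permutation test). Gstm1 had r = 0.77 with the neutrophil list (exact p = 0.053, adjusted p = 0.43; rho = 0.69, exact p = 0.089), 0.87 within the 2nd scan day and 0.51 without the 2 farthest mice. The part of stromal, erythroid or neutrophil content in the members' differences was not tested. Among the 45 pairs of members, none passed an adjusted p of 0.05 by the same test. The lowest exact p was that of Gstm1 with Gstt2 (r = 0.63, rho = 0.78, exact p = 0.0021, adjusted p = 0.093). The largest r was that of Gsta3 with Gstm2 (0.77, exact p = 0.0093, adjusted p = 0.14).

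**Figure D3:**
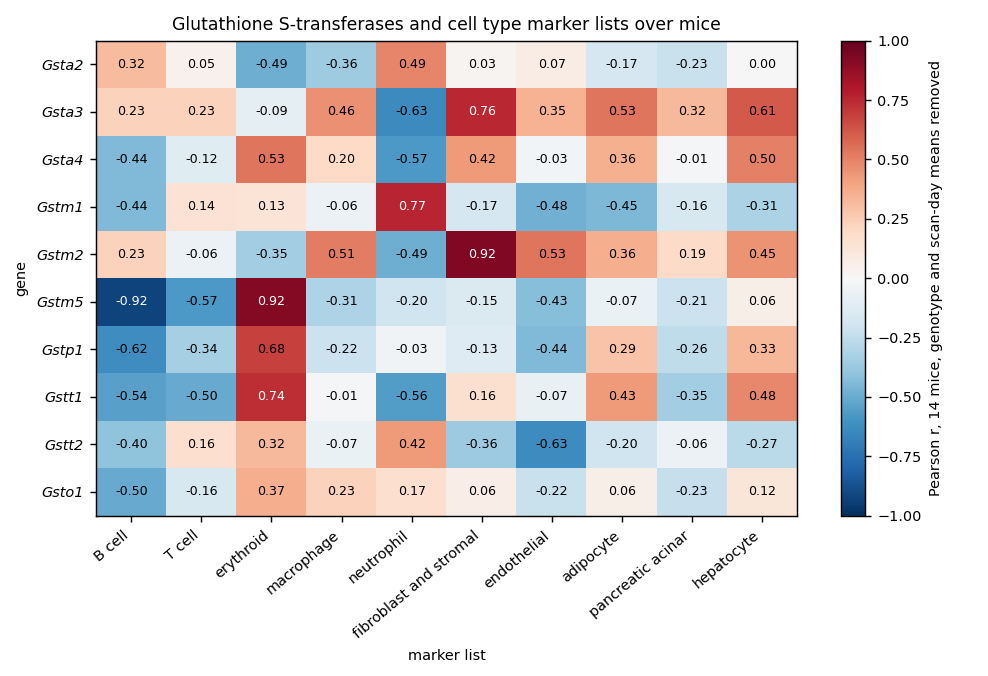
Pearson r over 14 mice between each of the 10 genes (rows) and the mean level of each marker list (columns) after the means of genotype and scan day were removed, from -1 (blue) to 1 (red). The strongest cells are Gstm5 with B cell (-0.92) and erythroid (0.92) markers and Gstm2 with fibroblast and stromal markers (0.92).

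**Figure D4:**
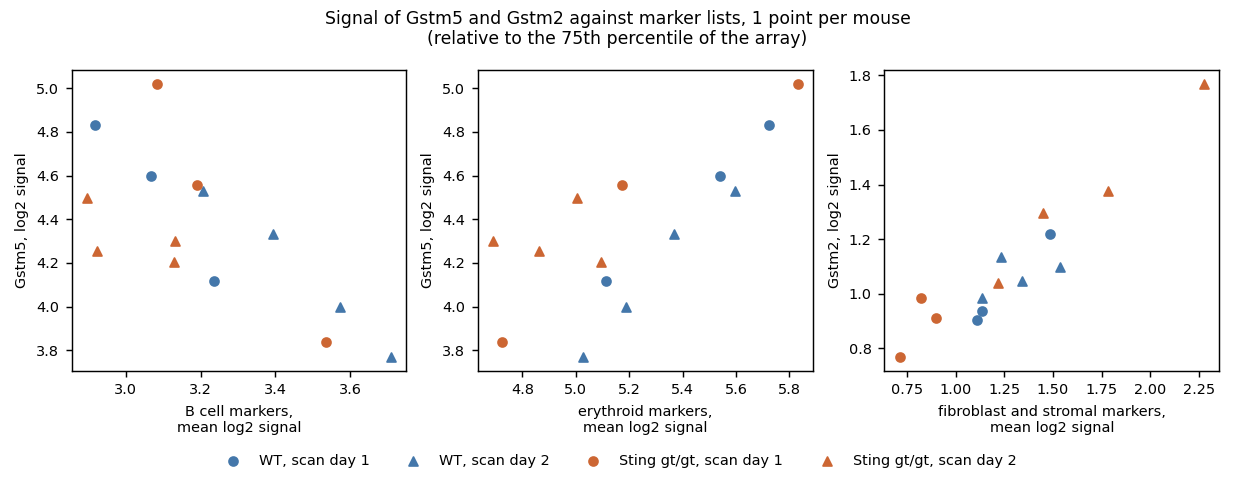
Level of Gstm5 or Gstm2 (y axis, log2 signal relative to the 75th percentile of the array) against the mean level of a marker list (x axis, same unit), 1 point per mouse, coloured by genotype (WT blue, Sting gt/gt orange) and shaped by scan day (1st circle, 2nd triangle). Among WT mice Gstm5 is 4.83 where B cell markers are lowest, at 2.92, and 3.77 where they are highest, at 3.71. Over all mice Gstm2 is highest, at 1.77, where stromal markers are highest, at 2.28, in a Sting gt/gt mouse.

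The genes whose pattern was most like that of Gsta2 were sought among 14707 genes with a symbol, by Pearson r over the 14 arrays after the scan-day means were removed. Srms, a Src-related kinase, had 0.83 (0.83 with scan day left in), Nrn1l 0.82 (0.81), the collagen gene Col6a4 0.81 (0.71), Gm5065 0.78 (0.63) and Adgrb1, an adhesion receptor, 0.77 (0.77). Genotype was left in, so genes that differ between the genotypes as Gsta2 does rank higher by construction. All 5 lay below the 75th percentile of the array, and the probe of Srms was well above background on 8 of 14 arrays. None of the 5 is a gene of glutathione metabolism.

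Other genes of the pathway came from lists that were not picked for how they moved. Of 18 other glutathione S-transferase genes, 13 were tested, and 1 was past an unadjusted p of 0.05 by limma. This was Gstz1, the zeta class enzyme of tyrosine breakdown, which ran from 0.93 over 1.15 to 1.35 in WT and from 1.26 over 1.30 to 1.49 in Sting gt/gt mice and was higher by 0.22 ± 0.09 (unadjusted p = 0.029, adjusted p = 1.0). The median over the 13 genes was 0.12, with -0.11 on the 1st scan day and 0.32 on the 2nd. Without WT replicate 4, the library with pancreatic markers, none of the 13 was past the threshold, while calls over all 24908 genes fell from 882 to 659. Without Sting gt/gt replicate 1, 4 of the 13 were past it, while calls over all genes rose to 1963. All 28 genes of glutathione synthesis and use were tested, and 2 were past an unadjusted p of 0.05, both lower in Sting gt/gt mice. Chac1, which breaks glutathione down, ran from -0.81 over -0.05 to 1.26 in WT and from -1.17 over -0.60 to -0.03 in Sting gt/gt mice (-0.72 ± 0.28). Slc3a2, the shared heavy chain of the cystine importer, ran from 4.12 over 4.48 to 4.80 and from 3.92 over 4.16 to 4.45 (-0.31 ± 0.11). Within the 1st and the 2nd scan day the difference was -1.26 and -0.32 for Chac1 and -0.44 and -0.21 for Slc3a2. Neither passed after adjustment over all genes, and the median over the 28 genes was 0.03. Without Sting gt/gt replicate 1, 6 of the 28 were past the threshold, where 1963 of all genes were.

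Of 26 NRF2 regulators and targets, 0 were past an unadjusted p of 0.05 by limma in the genotype contrast, 16 were positive and 10 negative, and the median was 0.02, beside 0.02 over all genes. The lowest p was that of catalase (Cat), which ran from 2.95 over 3.18 to 3.598 in WT and from 2.27 over 2.72 to 4.23 in Sting gt/gt mice, a difference of -0.38 ± 0.24. Sting gt/gt replicate 1, which had the highest erythroid mean, held that highest value of 4.23. Without that mouse Cat was lower by -0.61 ± 0.15 and was the 1 gene of the list past the threshold, where 1963 of all genes were. Between scan days 10 of the 26 differed at an adjusted p under 0.05, of which 4 were higher and 6 lower. Of all genes 38.8% differed, so this count is near that share. Of 7 genes of the aryl hydrocarbon receptor, 6 were tested, 0 were past an unadjusted p of 0.05 in the genotype contrast, and the lowest p was that of Arnt, the partner of the receptor, at 0.15 ± 0.11. Within the 2nd scan day alone the counts past an unadjusted p of 0.05 were 2 members, 4 other transferases, 7 genes of glutathione synthesis and use, 5 of NRF2 and 1 of the receptor, where 5911 of all genes were past it.

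RefSeq promoters (build GRCm38.p6) were on hand for 8 of the 10 members. The 250 bases before the start site were searched on both strands for TGACNNNGC, the core of the antioxidant response element that NRF2 binds, for GCGTG, the core bound by the aryl hydrocarbon receptor, and for AGATAA, a form of the site of the erythroid factor GATA1. The antioxidant core was found in 2 of the 8, Gsta3 and Gstm5, and in 10.2% of all 32851 promoters. GCGTG was found in 4 of the 8 (Gsta2, Gstm1, Gstm5 and Gstp1) and in 28.2% of all, and AGATAA in 1, Gsta3, and in 9.99% of all. The promoters of Gsta2, the gene that set the choice, and of the 2 members with an antioxidant core are shown 5′ to 3′ in the direction of the gene, with that core in capitals. A match is a run of letters and not a site shown to be bound.

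Gsta2, chr9:78347146-78347395, minus strand: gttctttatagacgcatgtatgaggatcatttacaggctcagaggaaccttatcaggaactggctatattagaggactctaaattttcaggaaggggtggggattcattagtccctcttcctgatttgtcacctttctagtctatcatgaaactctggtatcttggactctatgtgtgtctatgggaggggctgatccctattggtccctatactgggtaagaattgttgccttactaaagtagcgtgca

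Gsta3, chr1:21240335-21240584, plus strand: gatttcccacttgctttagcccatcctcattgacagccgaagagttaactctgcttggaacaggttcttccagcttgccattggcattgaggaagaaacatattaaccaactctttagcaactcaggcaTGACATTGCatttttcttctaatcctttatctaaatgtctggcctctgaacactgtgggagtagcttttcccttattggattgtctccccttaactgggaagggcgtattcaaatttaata

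Gstm5, chr3:107895604-107895853, plus strand: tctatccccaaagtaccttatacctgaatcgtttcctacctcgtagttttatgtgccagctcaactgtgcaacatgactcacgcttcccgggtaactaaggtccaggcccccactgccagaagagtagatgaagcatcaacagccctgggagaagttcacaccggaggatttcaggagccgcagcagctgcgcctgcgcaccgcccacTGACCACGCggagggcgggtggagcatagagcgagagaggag

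In Gsta3 the core starts at -121 from the start site and in Gstm5 at -42.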

How the data were processed

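The members and gene lists were chosen with earlier results of these data known. The authors deposited scanner files whose processed intensity was made per the file headers with Agilent Feature Extraction 11.0.1.1, which subtracts each spot's background without scaling between arrays. The authors also deposited a table of log2 values of the same arrays, whose normalization is not given in the sources used here. Its columns have medians from 5.49 to 5.52 and correlate with the scanner values at 0.9968 to 0.9986. It holds no scan-day difference, so it was used as an alternative.

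From the scanner intensity, log2 values were taken, spots with outlier flags dropped (11 values of tested genes), spots of one probe averaged and the 75th percentile of each array subtracted. A probe was tested when well above background on at least 7 of 14 arrays, which gave 31766 probes and 24908 genes, each read at its brightest tested probe (14729 with a symbol). Probes were named by unversioned accession through a RefSeq table of a later build than the array's, and 32994 probes (58.3%) matched. The groups were compared by limma 3.58.1 in R 4.3.3 without covariates. Genes past an unadjusted p of 0.05 were counted, as the methods do, and p-values were also adjusted over all genes (Benjamini-Hochberg). Scan day and its interaction with genotype were fitted by limma, with exact permutation tests for single members in Python 3.11.15 (scipy 1.17.1). p-values measure the spread between these samples. The number of arrays limits the precision. The code was tested on simulated data.

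Named genes were the members, the genes of the pathway lists past the threshold (or that with the lowest p), and the 5 most like Gsta2. Tfrc, 1 of the 2 genes of the erythroid list past the threshold, was added, as were Gstm3, Gstm4 and Gstm6, which were chosen after their values were seen. An item withheld is not reported here. Same-numbered mice of both genotypes deviated from their group means together (r from 0.16 to 0.53), which follows the scan day; with scan-day means removed, r ran from -0.41 to 0.25. The replicate number was also fitted as a block, which takes up the scan day, and no pairing of mice is read from it. Other scalings, background corrections, filters, blocks, and leaving out each array were tried.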

Additional observations from a re-analysis of the deposited data

Results flagged for a closer look

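In 40 groups of 7 mice (10 members and 10 marker lists in 2 genotypes), 3 held a mouse whose gap to its neighbour was large for the range of the group, where chance gives about 1 in 20. Gstt2 was at -0.23 in WT replicate 2, below the other WT mice. The erythroid mean was 5.83 in Sting gt/gt replicate 1, and the pancreatic acinar mean was 7.14 in WT replicate 4. The genotype difference changed between the scan days by 0.81 for Gstm1 (exact permutation p = 0.0071) and by 0.43 for Gstm2 (exact permutation p = 0.037), and neither passed adjustment over all genes by limma.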

How the results depend on the processing

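The difference in Gsta2 kept its direction in every alternative that could be fitted. It ran from -0.89 to -0.24 over the 16 settings and from -0.85 to -0.58 when 1 array was left out. It was smallest under normexp background correction (-0.24) and was -0.57 within scan day 1. It could not be tested when a probe had to be well above background on all arrays. With the replicate block the difference stayed at -0.75 ± 0.19, 1 member was past the threshold, other transferases had 0 genes past it and NRF2 genes 1, and 1408 of all genes were past it. The members past an unadjusted p of 0.05 numbered 0 with the filter for all arrays, where 756 of 21902 genes were past it. They numbered 0 with slide as a fixed block (885 of all 24908 genes) and within scan day 1 (939 of all genes). Within scan day 2 they numbered 2, where 5911 of all genes were past it. Whichever array was left out they numbered 1, where 494 to 1963 of all genes were. The median of the members ran from 0.06 to 0.15 without single arrays. The members called between scan days by limma numbered 0 in the deposited table, where 0 of all genes were called. With median centring they numbered 4, where Gstm2 joined (adjusted p = 0.010) and 11215 of all genes were called. Without single arrays they numbered from 2 to 3, where 8253 to 9681 of all genes were. Gstm2 joined without WT replicate 2 (adjusted p = 0.036) and Gstm5 without Sting gt/gt replicate 3 (adjusted p = 0.047). Gsta3 was at an adjusted p of 0.095 with Y-linked signal as a term, which was added with the data in view. The interaction called 0 members at an adjusted p under 0.05 in the main fit and in every alternative run. At an unadjusted p under 0.05 the main fit had 1.

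The other transferases past the threshold numbered 0 with median centring, without scaling, with slide as a random or a fixed block and within scan day 1, 2 with scan day as a term, 4 within scan day 2, and from 0 to 4 without single arrays (0 without WT replicate 4, WT replicate 5 or Sting gt/gt replicate 5, and 4 with Sting gt/gt replicate 1 left out). Genes of glutathione synthesis and use numbered 4 with quantile normalization, 1 with probes averaged or slide as a fixed block, 7 within scan day 2, and from 2 to 6 without single arrays. NRF2 genes numbered 1 in the deposited table, 5 within scan day 2 and from 0 to 1 without single arrays, and receptor genes 1 within scan day 2. Gstm1 moved by more than its spread with slide as a fixed block and within each scan day. Causes were not tested.

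Over all genes, 882 were past the threshold (477 higher, 405 lower). They numbered 949 with quantile normalization, 818 with median centring, 763 without scaling, 916 with probes averaged and 885 with slide as a fixed block. They numbered 1928 in the deposited table, 1803 with scan day as a term and 439 with slide as a random block. There were 939 within scan day 1, 5911 within scan day 2 and from 494 to 1963 without single arrays. The methods' t-test called 994 and, after Benjamini-Hochberg, 0, where limma called 1. The split was 250 higher to 568 lower with median centring, 149 to 614 without scaling and 491 to 307 with normexp. The interaction called 122 genes, 68 with median centring, 0 without scaling, without a filter or with Y-linked signal, 293 with the strict filter and from 0 to 682 without single arrays. Median centring moved the median scan-day difference to 0.17, and Gsta3 was 0.72 there. Slide as a fixed block rests on 5 arrays. Dim signal limits Gsta2.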
